A study of Drosophila melanogaster with 27 samples.

Results

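Tumour wing discs were set against control wing discs of Drosophila melanogaster in a comparison of 4 of the 27 RNA sequencing libraries of the series. Its members are the 2 tumour and 2 control libraries whose titles and tissue label name the wing disc, and every gene of the count table was used. The series asked how transcription factors downstream of Hippo signalling act in a malignant tumour model of the larval imaginal discs. It holds tumour and control libraries of eye-antennal, leg and wing discs, and tumours with a further hairpin in eye-antennal and leg discs. Tumour larvae carried a hairpin against scrib (UAS-scrib-RNAi) and an activated Ras transgene (UAS-Ras[v12]), each in a single dose beside the hh-Gal4 driver, UAS-GFP and a luciferase hairpin (UAS-luci-RNAi). Control larvae carried the same driver, UAS-GFP and a luciferase hairpin (UAS-luc-RNAi), so Gal4, GFP and a hairpin against luciferase are common to all 4 libraries. The larvae were wandering, in the last larval instar, and were raised at 25 °C. Tumour discs were dissected on day 9 (replicate 1) and day 11 (replicate 2), and both control replicates on day 5. Each replicate was an independent dissection of 35 to 50 larvae.

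Gal4 under hh control drives the transgenes in cells of the posterior compartment. Whole discs were sequenced, so each library also holds anterior cells that do not express them. Because all tumour discs were older than all control discs, genotype and age cannot be told apart, nor can day and replicate within the tumour group. Discs of many larvae were pooled, and p-values measure the spread between such pools. In such bulk libraries fewer cells of a type and less RNA per cell cannot be told apart.

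The wing disc is an epithelial sac whose pouch forms the wing blade, whose hinge joins it to the body and whose notum forms the back of the thorax. The protein Scrib keeps the apical and basal sides of these cells apart. In fly discs its loss together with activated Ras is known to give overgrown, invasive tissue in which the JNK kinase cascade, acting through the AP-1 factor, and cytokines of the Upd family, acting through JAK/STAT, are switched on.

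Reads assigned to genes numbered 12077498 and 13008159 in tumour and 12940300 and 14691493 in control wing discs, within the range of 11683247 to 16007581 of the whole series. Of the lines that the counting program wrote, multiply aligned reads took 76.1% and 60.9% in tumour libraries and 16.9% and 15.8% in control libraries. These reads were left out of all values, and their part in the results was not tested. Replicates correlated at 0.962 in tumour and 0.978 in control discs (log CPM over genes), and neither pair was a repeat of the same library. Among 6719 genes with a mean of at least 10 CPM (counts scaled to library size) in a wing group, the tumour replicates differed at least 2-fold for 358 genes and the control replicates for 149. Values of a group are given below with replicate 1 before replicate 2. A log2 change is tumour over control and is followed by its standard error. Adjusted p-values come from edgeR's quasi-likelihood test with the Benjamini-Hochberg adjustment over 9814 genes, and a call is an adjusted p under 0.05. A call is said to have held if it remained when each of the 4 wing libraries was left out in turn, which says nothing of other alternatives: a fit of the 4 wing libraries alone kept 41.7% of all calls. Where counts without single wing libraries are given, they stand in the order tumour replicate 1, tumour replicate 2, control replicate 1 and control replicate 2.

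Ras85D (FBgn0003205), the Ras gene of the activated transgene, stood at 1306 and 585 CPM in tumour against 302 and 286 CPM in control discs (log2 fold change 1.69 ± 0.30, adjusted p = 0.000685). That count pools transgene with endogenous reads. The hairpin target scrib (FBgn0263289) stood at 254 and 222 CPM in tumour against 311 and 341 CPM in control discs, a smaller difference whose call did not hold (log2 fold change -0.45 ± 0.13, adjusted p = 0.0148). Its log2 change was -0.36 (adjusted p = 0.104) without tumour replicate 2 and -0.40 (adjusted p = 0.0968) without control replicate 2. The driver's own locus hh (FBgn0004644), which encodes the Hedgehog ligand of posterior cells, stood at 73.3 and 80.5 CPM in tumour against 65.7 and 87.1 CPM in control discs, so that its groups overlapped. The libraries fitted their tissue label. In tumour and control wing discs the wing-forming gene vg averaged 71.9 and 239 CPM, nub 127.8 and 294 CPM and the Hox gene Antp 93.1 and 96.3 CPM. Control eye-antennal discs had 4.97 CPM of vg, 5.12 CPM of nub and 4.27 CPM of Antp, and control leg discs 15.9, 75.3 and 126 CPM. The eye gene ey stood at 0.441 and 1.51 CPM in tumour wing and 0.501 and 0.443 CPM in control wing discs, where control eye-antennal discs averaged 110.1 CPM.

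Of 9814 genes tested, 1597 (16.3%) were higher and 1383 (14.1%) were lower in tumour wing discs, together 30.4% of the tested genes. At least 2-fold changes were mostly rises: 956 genes (9.74%) rose and 266 (2.71%) fell by that much, and the median change over all tested genes was 0.04 on the log2 scale. The calls held for 704 of the genes that rose and 642 of those that fell. Without single wing libraries the rises numbered 1067, 1549, 1042 and 932, and the falls 849, 1258, 1015 and 854. The libraries of the groups did not overlap for 1591 of the risen and all 1383 of the fallen genes, a property that 62.7% of all tested genes shared. No read was counted in the control wing discs for 63 of the risen genes, and 177 had at most 3 reads there. Fitted log2 changes of such genes depend on a small count added in the fit and are no bound on the fold.

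**Figure D1:**
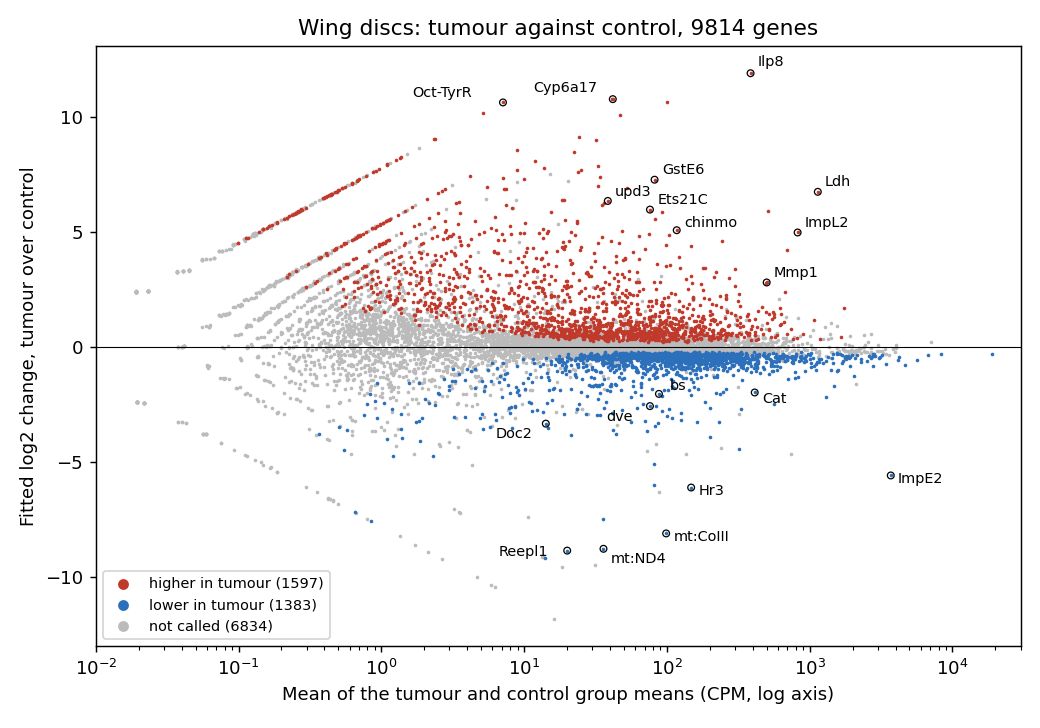
Each point is a gene, with the mean of its tumour and control wing group means in CPM on a log axis and its fitted log2 change, tumour over control, on the vertical axis. Red points are the 1597 genes called higher, blue points the 1383 called lower and grey points the remainder; 93 tested genes without a read in the wing libraries lie off the axis, and the rises reach further from 0 than most of the falls.

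The largest rise was that of Ilp8, a relaxin-like peptide by which damaged or overgrown discs delay pupariation. Ilp8 stood at 584 and 959 CPM in tumour against 0.0835 and 0.295 CPM in control discs (log2 fold change 11.88 ± 1.36, adjusted p = 2.72e-05), so that a gene with 5 reads in the control libraries together had 19922 in the tumour libraries. The cytochrome P450 gene Cyp6a17 stood at 112 and 55 CPM in tumour against 0.0835 and 0 CPM in control discs. With 1 read in the control group its ratio was 2060.3-fold (369 to 81415), where the range in parentheses is the 95% interval from counting error only. Oct-TyrR, a receptor for octopamine and tyramine, had 13 and 15.5 CPM in tumour discs and no read in control discs, and was at least 122-fold higher, counted against a floor of 3 reads over the control group. The genes CG32241, CG14695 and CG12911, for which no role is given here, were 1169-fold (323 to 9661), 623-fold (172 to 5151) and 512-fold (175 to 2487) higher, from means of 94.4, 48.4 and 63.3 CPM in tumour discs and at most 3 control reads. GstD5, a glutathione transferase, had 80.1 and 9.52 CPM in tumour against 0 and 0.221 CPM in control discs, a ratio of 351-fold (119.8 to 1705). The calls of these 7 genes held. By limma-voom the adjusted p was 0.0913 for Cyp6a17, 0.152 for CG32241, 0.133 for CG12911 and 0.367 for GstD5, so that these 4 were not called by that test, nor with the dissection as a random block in it. With the wing libraries alone GstD5 had an adjusted p of 0.0609.

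In the other 5 of the 12 largest rises tumour replicate 1 was more than 10 times tumour replicate 2, and each call was lost without at least 1 of the wing libraries. The cuticle gene Cpr64Ac had 152 and 14.2 CPM in tumour against 0 and 0.0738 CPM in control discs. The Nimrod receptor gene NimC4 had 19.3 and 1.37 CPM in tumour against 0 and 0 CPM in control discs, at least 80.3-fold higher against the floor. The heat shock cognate gene Hsc70-2 had 34.6 and 1.15 CPM in tumour against 0 and 0.0738 CPM in control discs. CG34034 had 43.9 and 3.97 CPM in tumour against 0.167 and 0 CPM in control discs. FBgn0030591, which has no symbol here, had 129 and 2.02 CPM in tumour against 0.167 and 0.369 CPM in control discs. Their adjusted p-values were 0.0267, 0.0207, 0.00314, 0.00434 and 0.00837. The log2 change of Cpr64Ac was 8.21 (adjusted p = 0.108) without tumour replicate 1, 9.97 (adjusted p = 0.137) without control replicate 1 and 13.13 (adjusted p = 0.142) without control replicate 2. That of NimC4 was 7.25 (adjusted p = 0.108) without tumour replicate 1, 10.16 (adjusted p = 0.0922) without control replicate 1 and 10.13 (adjusted p = 0.105) without control replicate 2. That of Hsc70-2 was 4.60 (adjusted p = 0.0579) without tumour replicate 1, and that of CG34034 7.06 (adjusted p = 0.0536) without control replicate 2. That of FBgn0030591 was 2.85 (adjusted p = 0.205) without tumour replicate 1, 7.43 (adjusted p = 0.0728) without control replicate 1 and 8.50 (adjusted p = 0.0676) without control replicate 2.

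The largest falls were those of 4 genes of the mitochondrial genome and of Reepl1. The gene mt:ND5 of respiratory complex I stood at 0 and 0.0721 CPM in tumour against 37.3 and 18.8 CPM in control discs. Also of complex I, mt:ND4 stood at 0 and 0.288 CPM in tumour against 77.1 and 66.6 CPM in control discs and mt:ND1 at 0.265 and 0.505 CPM in tumour against 90.8 and 51.2 CPM in control discs. The cytochrome oxidase gene mt:CoIII stood at 0.617 and 0.793 CPM in tumour against 236 and 158 CPM in control discs (log2 fold change -8.09 ± 0.26, adjusted p = 8.02e-11). Reepl1 stood at 0 and 0.144 CPM in tumour against 41.6 and 38.5 CPM in control discs, a ratio of 503-fold (139 to 4161) for control over tumour. Of the 13 protein-coding mitochondrial genes on the list only 5 were tested, and all 5 fell; the other 8 had at most 35 reads in the 4 libraries. The fall of mt:CoI (log2 fold change -2.24 ± 0.65, adjusted p = 0.0164) did not hold, with a log2 change of -1.76 (adjusted p = 0.117) without tumour replicate 2 and -1.66 (adjusted p = 0.129) without control replicate 1. These gene counts exclude reads aligned to several places. Such reads took 76.1% and 60.9% of the lines of the counting program in tumour and 16.9% and 15.8% in control libraries. The part of that difference in the low mitochondrial counts was not tested. Further large falls were those of CG15905 (1.59 and 3.32 CPM in tumour against 143 and 176 CPM in control discs) and CG3649 (2.38 and 3.10 CPM in tumour against 36.5 and 42.7 CPM in control discs), for which no role is given here, and of the ecdysone-responsive genes described below. The serpin gene Spn100A had 49.1 and 8.51 CPM in tumour against 439 and 779.9 CPM in control discs (log2 fold change -4.41 ± 1.23, adjusted p = 0.0152). The change of Spn100A was -3.63 (adjusted p = 0.0962) without tumour replicate 2 and -3.96 (adjusted p = 0.0598) without control replicate 2.

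**Figure D2:**
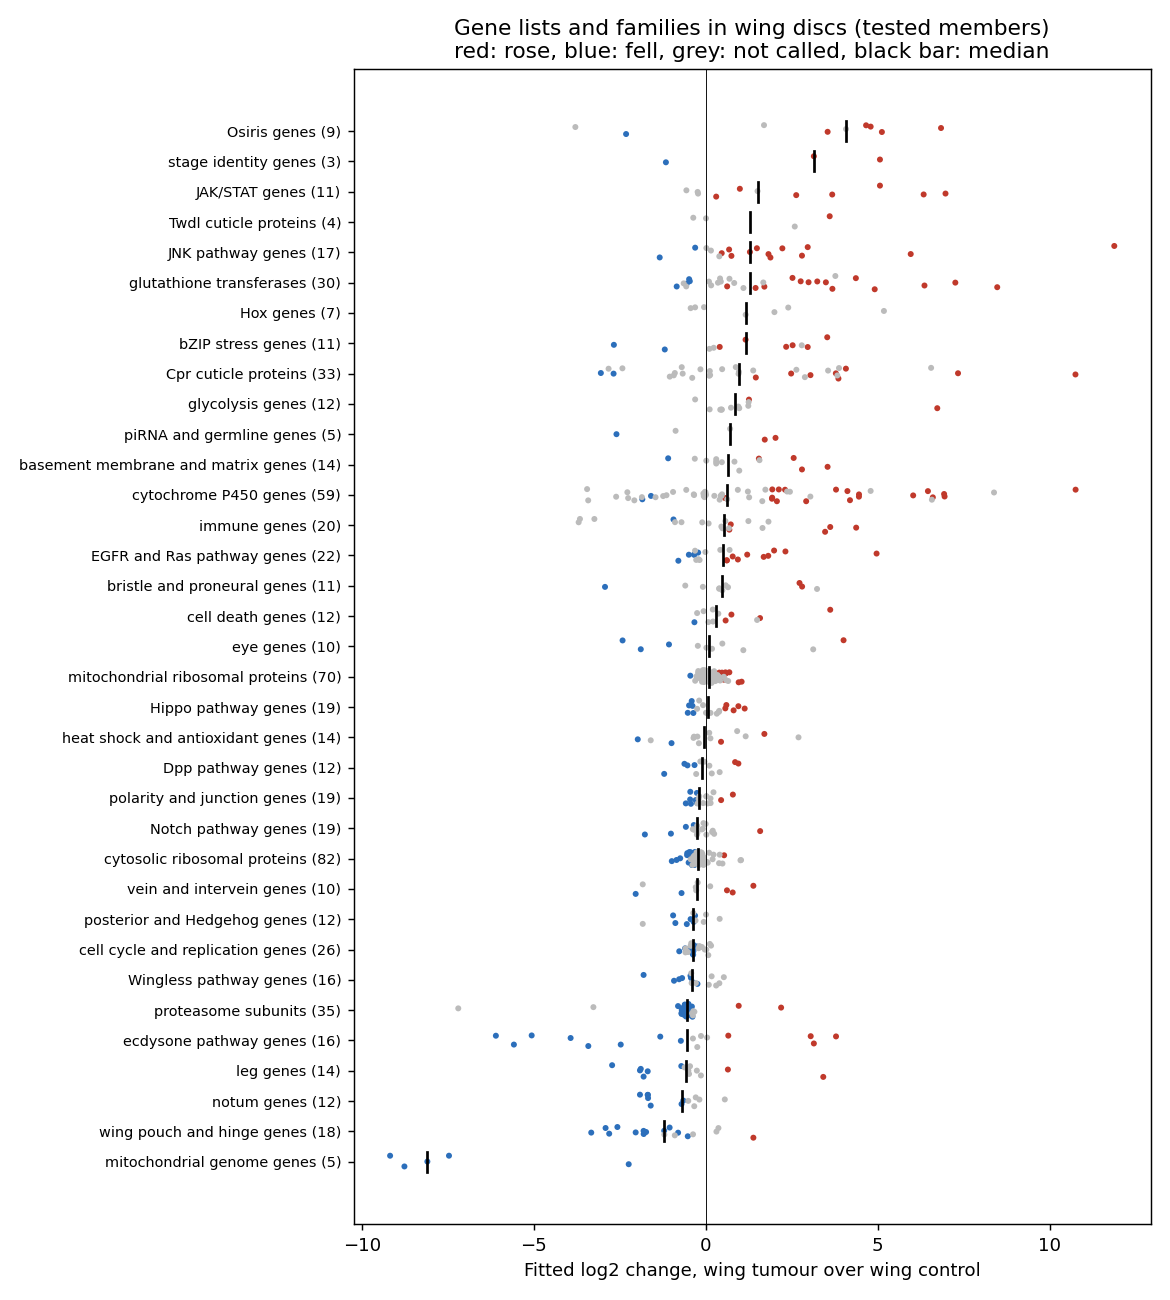
Each point is a tested gene of the list or family named on the left (number tested in parentheses), placed by its fitted log2 change in wing discs, tumour over control; red points rose, blue points fell, grey points were not called and black bars are list medians. The JAK/STAT and JNK lists have medians of 1.51 and 1.29, the wing pouch and hinge list -1.21, and the median over all tested genes is 0.04.

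Most genes of the JNK list rose in tumour wing discs, but the receptor and kinase genes described below did not all rise. Of 17 tested members of the list 12 rose and 2 fell, with a median log2 change of 1.29, beside 16.3% and 14.1% and a median of 0.04 over all tested genes. The counts of every list below are likewise to be read beside these shares of all tested genes. The lists were chosen with earlier results of these data known, so the counts are not an independent test of a pathway. Some genes are on more than 1 list, so the lists are not independent of each other. Of the rises 9 held, and the falls numbered 1, 2, 1 and 2 without single wing libraries. Among the targets, the ETS factor gene Ets21C stood at 176 and 124 CPM in tumour against 2.67 and 2.14 CPM in control discs (log2 fold change 5.96 ± 0.57, adjusted p = 5.08e-06). The stress-response gene Gadd45 stood at 279 and 202 CPM in tumour against 34.2 and 27.3 CPM in control discs (log2 fold change 2.97 ± 0.32, adjusted p = 1.07e-05). The matrix metalloprotease gene Mmp1, whose product cuts the basement membrane, stood at 1030.1 and 720.0 CPM in tumour against 113 and 138 CPM in control discs (log2 fold change 2.80 ± 0.40, adjusted p = 0.000122). In each of these genes both tumour libraries were at least 5 times the higher control library. The JNK phosphatase gene puc, a feedback inhibitor that is widely used as a readout of the pathway, had 175 and 117 CPM in tumour against 36.7 and 45.5 CPM in control discs (log2 fold change 1.82 ± 0.26, adjusted p = 0.000116). The growth factor gene Pvf1 had 64 and 44.6 CPM in tumour against 11.8 and 11.4 CPM in control discs (2.23 ± 0.23). The protease homologue gene scaf had 429 and 223 CPM in tumour against 92 and 84.7 CPM in control discs (1.88 ± 0.29). The gene cher, which encodes the actin crosslinker Filamin, had 889 and 721 CPM in tumour against 349 and 311 CPM in control discs (1.29 ± 0.13).

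The receptors of the TNF ligand Eiger, which lies upstream of JNK, moved apart. The receptor gene grnd had 174 and 159 CPM in tumour against 123 and 118 CPM in control discs (log2 fold change 0.46 ± 0.09, adjusted p = 0.00138). The other receptor gene, wgn, had 28.8 and 27.7 CPM in tumour against 66.4 and 76.3 CPM in control discs (log2 fold change -1.34 ± 0.14, adjusted p = 6.68e-06). The ligand gene egr stood at 25.2 and 19.6 CPM in tumour and 15.3 and 18.8 CPM in control discs and was not called. The kinase genes hep and Tak1 were not called either, at 144 and 110.2 CPM in tumour and 106 and 122 CPM in control discs and at 75.7 and 83.4 CPM in tumour and 75.2 and 81.8 CPM in control discs. The JNK gene bsk fell by 0.31 on the log2 scale (94 and 100.2 CPM in tumour and 127 and 114 CPM in control discs), and its log2 change was -0.26 (adjusted p = 0.0801) without tumour replicate 1 and -0.23 (adjusted p = 0.1) without control replicate 1. Of the AP-1 subunits, kay (Fos) had 544 and 292 CPM in tumour against 139.7 and 158 CPM in control discs (log2 fold change 1.49 ± 0.35, adjusted p = 0.00507). Jra (Jun) had 126 and 92.4 CPM in tumour against 63.5 and 72.6 CPM in control discs (log2 fold change 0.68 ± 0.22, adjusted p = 0.0272). Neither call held. The change of kay was 0.97 (adjusted p = 0.0817) without tumour replicate 1. That of Jra was 0.44 (adjusted p = 0.236) without tumour replicate 1, 0.59 (adjusted p = 0.151) without control replicate 1 and 0.77 (adjusted p = 0.0674) without control replicate 2. The plot of signalling genes shows these members side by side.

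All 3 genes for Upd cytokines, the ligands of the fly JAK/STAT pathway, rose in tumour wing discs. The cytokine gene upd3 stood at 76.6 and 76 CPM in tumour against 0.668 and 1.18 CPM in control discs (log2 fold change 6.34 ± 0.53, adjusted p = 1.92e-06). For upd2 the values were 81.8 and 48.2 CPM in tumour against 0.418 and 0.591 CPM in control discs (log2 fold change 6.97 ± 0.69, adjusted p = 6.27e-06). Those of upd1 were 72.9 and 89.9 CPM in tumour against 5.43 and 7.24 CPM in control discs (log2 fold change 3.68 ± 0.42, adjusted p = 1.9e-05). Both tumour libraries were more than 10 times the higher control library for each of them. Socs36E, a feedback inhibitor and common readout of the pathway, stood at 609.8 and 432 CPM in tumour against 79.4 and 88.6 CPM in control discs (log2 fold change 2.63 ± 0.20, adjusted p = 7.06e-07). The receptor gene dome had 284 and 276 CPM in tumour against 204 and 249.98 CPM in control discs, a call (log2 fold change 0.30 ± 0.11, adjusted p = 0.0434) that did not hold. The change of dome was 0.28 (adjusted p = 0.155) without tumour replicate 1, 0.32 (adjusted p = 0.0858) without tumour replicate 2 and 0.16 (adjusted p = 0.349) without control replicate 1. The kinase gene hop (109 and 102 CPM in tumour and 114 and 133 CPM in control discs) and the transcription factor gene Stat92E (223 and 248 CPM in tumour and 274 and 281 CPM in control discs) were not called. Of 11 tested members 7 rose and none fell, with a median of 1.51, and 5 rises held.

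The list also holds chinmo, a BTB zinc finger factor of early larval discs and of stem cells, which stood at 210.2 and 245 CPM in tumour against 9.10 and 4.58 CPM in control discs (log2 fold change 5.07 ± 0.42, adjusted p = 1.92e-06). Syp, which encodes an RNA-binding protein that succeeds Chinmo in the temporal programme of neural stem cells, moved the other way, at 336 and 306 CPM in tumour against 701 and 729.7 CPM in control discs (log2 fold change -1.16 ± 0.13, adjusted p = 1.54e-05). Eip93F, a factor of the later stages, had 17.7 and 6.35 CPM in tumour against 1.75 and 0.96 CPM in control discs (log2 fold change 3.14 ± 1.12, adjusted p = 0.0462). That call did not hold, with a change of 2.22 (adjusted p = 0.233) without tumour replicate 1, 3.63 (adjusted p = 0.124) without control replicate 1 and 2.75 (adjusted p = 0.223) without control replicate 2.

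Several genes that restrain EGFR signalling were higher in tumour wing discs, while the receptor gene Egfr and the MAP kinase gene rl were lower. Of 22 tested genes of the EGFR and Ras list 10 rose and 5 fell (median 0.51). Of these calls 7 rises and 2 falls held, and the falls numbered 2, 5, 4 and 2 without single wing libraries. The 7 rises include Ras85D, whose count holds reads of the transgene, so that its rise says nothing of the pathway's response. They also include ImpL2, which acts on insulin-like peptides. The transcription factor gene pnt, which carries the response to the pathway, stood at 158 and 124 CPM in tumour against 40.9 and 39 CPM in control discs (log2 fold change 1.82 ± 0.18, adjusted p = 5.08e-06). Sprouty (sty), Argos (aos), Kekkon (kek1) and the phosphatase Mkp3 each restrain EGFR signalling. Their genes stood at 589.7 and 477, 152 and 96.1, 602 and 562 and 172 and 170.1 CPM in tumour and at 90.5 and 123, 23.7 and 38.6, 226 and 279 and 77.8 and 101 CPM in control discs. Their log2 changes were 2.32 ± 0.25, 1.99 ± 0.31, 1.21 ± 0.14 and 0.93 ± 0.15. ImpL2, a secreted antagonist of insulin-like peptides, had 2228 and 967 CPM in tumour against 49.6 and 52.4 CPM in control discs (log2 fold change 4.97 ± 0.54, adjusted p = 1.37e-05), highest in tumour replicate 1. The receptor gene Egfr fell, at 209.8 and 209 CPM in tumour against 332 and 395 CPM in control discs (log2 fold change -0.80 ± 0.13, adjusted p = 0.000365). The MAP kinase gene rl fell as well, at 74 and 70.7 CPM in tumour against 104 and 98.9 CPM in control discs (log2 fold change -0.49 ± 0.12, adjusted p = 0.0063). The ligand genes spi and Krn were not called, at 333 and 294 CPM in tumour and 225 and 243 CPM in control discs and at 27.9 and 24.7 CPM in tumour and 27.8 and 31.6 CPM in control discs.

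On the list of bZIP stress genes 6 of 11 rose and 2 fell (median 1.16), and 4 rises and both falls held. This list also holds genes of other kinds: Gadd45, already counted on the JNK list, is 1 of the 4 rises, and aay is 1 of the 2 falls. The AP-1-related factor gene Atf3 stood at 73.4 and 43.1 CPM in tumour against 10.3 and 9.89 CPM in control discs (log2 fold change 2.53 ± 0.32, adjusted p = 4.07e-05). The C/EBP-like factor gene Irbp18 stood at 110.4 and 51.5 CPM in tumour against 17.2 and 14.8 CPM in control discs (log2 fold change 2.34 ± 0.32, adjusted p = 8.82e-05). Its partner gene Xrp1, a factor of cell competition and DNA damage, stood at 1604 and 1349 CPM in tumour against 624 and 699 CPM in control discs (log2 fold change 1.16 ± 0.21, adjusted p = 0.000648). All tumour libraries were above all control libraries in these 3 genes, and tumour replicate 1 was the higher of the pair in each. The secretory pathway factor gene CrebA fell, at 93.3 and 103 CPM in tumour against 189 and 259 CPM in control discs (log2 fold change -1.19 ± 0.17, adjusted p = 0.000103). So did aay, which encodes a phosphoserine phosphatase of serine synthesis, at 2.47 and 1.80 CPM in tumour against 15.8 and 11.4 CPM in control discs (log2 fold change -2.67 ± 0.36, adjusted p = 7.61e-05). ATF4, encoded by crc, showed no call, with 2015 and 1682 CPM in tumour and 1700.1 and 1733 CPM in control discs. Of the cell death genes, p53 had 57.2 and 54.9 CPM in tumour against 18.9 and 18.6 CPM in control discs (log2 fold change 1.58 ± 0.16, adjusted p = 5.08e-06). Corp, a negative regulator of p53, had 35 and 19.8 CPM in tumour against 1.92 and 2.51 CPM in control discs (log2 fold change 3.62 ± 0.38, adjusted p = 8.92e-06). The death inducer gene hid (123 and 164 CPM in tumour and 128 and 144 CPM in control discs) and the caspase gene Drice (119 and 119 CPM in tumour and 128 and 120.3 CPM in control discs) were not called. That list had 4 rises and 1 fall among 12 genes (rises 3, 3, 2 and 3 without single wing libraries, falls 0, 1, 0 and 1 without single wing libraries).

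Genes that pattern the wing pouch and hinge were lower in tumour discs. Of 18 tested members 12 fell and 1 rose (median -1.21), and 8 falls and the rise held. The wing selector gene vg had 67.2 and 76.5 CPM in tumour against 212 and 267 CPM in control discs (log2 fold change -1.73 ± 0.48, adjusted p = 0.0133), with separate groups but a call that did not hold. Its log2 change was -1.64 (adjusted p = 0.0906) without tumour replicate 1, -1.83 (adjusted p = 0.0502) without tumour replicate 2 and -1.56 (adjusted p = 0.0833) without control replicate 2. The pouch gene nub (92.6 and 163 CPM in tumour and 266 and 322 CPM in control discs) and the spalt genes salm (74.7 and 121 CPM in tumour and 179 and 187 CPM in control discs) and salr (184 and 271 CPM in tumour and 273 and 314 CPM in control discs) were not called. The homeobox gene dve, a gene of the pouch, had 18.8 and 25.1 CPM in tumour against 108 and 153 CPM in control discs (log2 fold change -2.57 ± 0.27, adjusted p = 7.37e-06). The T-box genes Doc1, Doc2 and Doc3, which lie side by side in the genome and act in the hinge and lateral pouch, fell together. Doc1 stood at 2.73 and 6.13 CPM in tumour against 33.5 and 33.7 CPM in control discs. Doc2 stood at 2.38 and 2.74 CPM in tumour against 24.1 and 27.5 CPM in control discs, and Doc3 at 2.03 and 4.76 CPM in tumour against 23 and 24.9 CPM in control discs. Their log2 changes were -2.91 ± 0.43, -3.33 ± 0.37 and -2.81 ± 0.61. The T-box gene bi, a Dpp target in the pouch, had 68.4 and 77.5 CPM in tumour against 152 and 185 CPM in control discs (log2 fold change -1.21 ± 0.16, adjusted p = 4.99e-05). The distal gene Dll had 38.9 and 31 CPM in tumour against 113 and 132 CPM in control discs (log2 fold change -1.81 ± 0.30, adjusted p = 0.000426). The hinge genes zfh2 (807 and 658 CPM in tumour and 552 and 582 CPM in control discs) and Sox15 (179 and 228 CPM in tumour and 145 and 182 CPM in control discs) were not called.

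The fly serum response factor gene bs, which specifies intervein tissue, fell with little spread. It stood at 33.8 and 35.2 CPM in tumour against 129 and 154 CPM in control discs (log2 fold change -2.04 ± 0.10, adjusted p = 1.04e-08). The vein gene kni stood at 20.8 and 20.8 CPM in tumour against 45.9 and 40.3 CPM in control discs (log2 fold change -1.05 ± 0.24, adjusted p = 0.0038). The vein gene ab moved the other way, at 434 and 441 CPM in tumour against 165 and 169.9 CPM in control discs (log2 fold change 1.39 ± 0.20, adjusted p = 0.000108), and was the only risen member of the pouch and hinge list. Over the 10 vein and intervein genes 3 rose and 2 fell. The rises numbered 1, 3, 1 and 2 without single wing libraries and the falls 1, 2, 3 and 2 without single wing libraries.

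**Figure D3:**
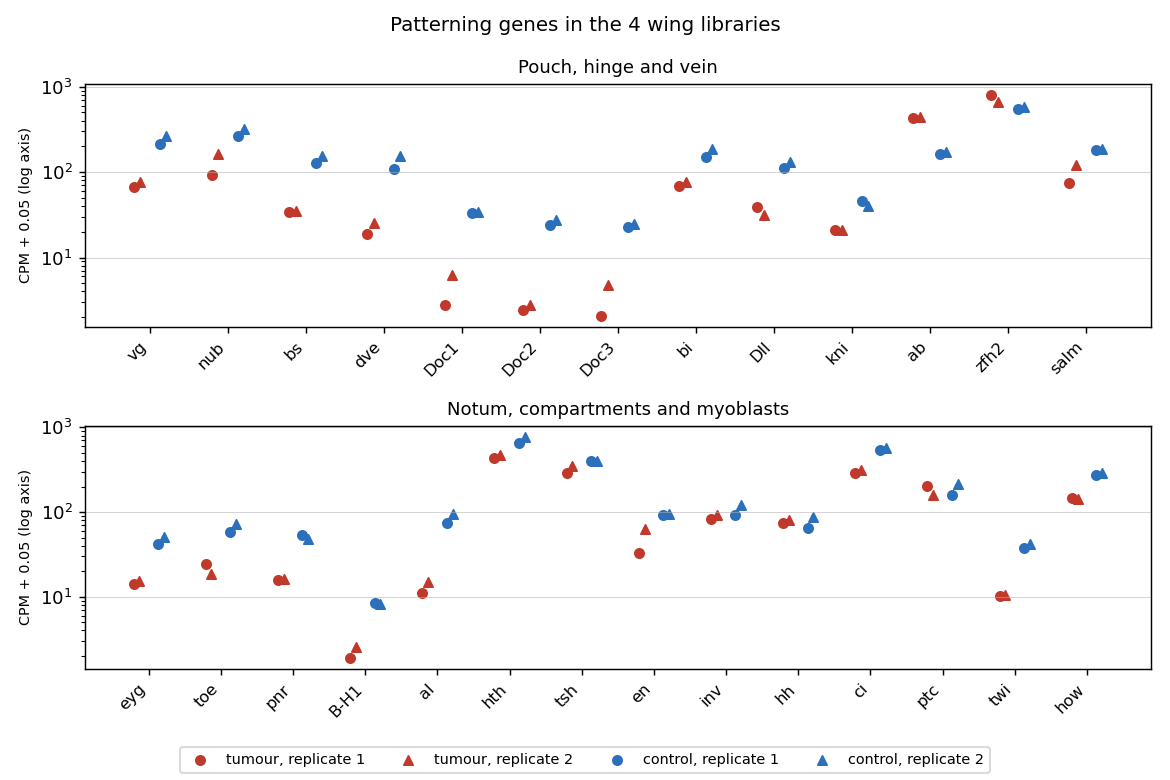
Vertical axes give CPM plus 0.05 on a log scale for each of the 4 wing libraries; red symbols are tumour, blue symbols control, circles replicate 1 and triangles replicate 2. In the upper panel the tumour libraries of bs stand at 33.8 and 35.2 CPM under control libraries at 129 and 154 CPM, and ab is the gene with the reverse order and a call; in the lower panel the libraries of hh, ptc and inv lie close together.

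Genes of the notum fell as well, 7 of 12 with none rising (median -0.68), and 4 of the falls held. The Pax factor gene eyg had 13.9 and 15.1 CPM in tumour against 42.4 and 50.6 CPM in control discs (log2 fold change -1.68 ± 0.32, adjusted p = 0.00109). The Bar genes B-H1 and B-H2, which act in the notum and in leg segments, fell too. B-H1 stood at 1.85 and 2.52 CPM in tumour against 8.35 and 8.27 CPM in control discs (-1.91 ± 0.24). Its neighbour B-H2 stood at 1.85 and 3.17 CPM in tumour against 8.94 and 7.46 CPM in control discs (-1.69 ± 0.28). The proximal gene hth stood at 436 and 469 CPM in tumour against 646 and 775 CPM in control discs (log2 fold change -0.65 ± 0.13, adjusted p = 0.00158). Its partner tsh was not called (289 and 349 CPM in tumour and 401 and 403 CPM in control discs). The GATA factor gene pnr of the medial notum had 15.6 and 16 CPM in tumour against 54.1 and 47.4 CPM in control discs (log2 fold change -1.68 ± 0.43, adjusted p = 0.00914). Its change was -1.66 (adjusted p = 0.0608) without tumour replicate 1. None of 7 tested Hox genes was called: Antp stood at 82 and 104 CPM in tumour and 90.5 and 102 CPM in control discs, and Ubx at 17.4 and 19.6 CPM in tumour and 11.6 and 38.5 CPM in control discs. The myoblasts that adhere to the notum were followed by 7 markers, of which 6 fell, 5, 5, 6 and 3 without single wing libraries. Among them how had 148 and 143 CPM in tumour against 274 and 288 CPM in control discs (log2 fold change -0.95 ± 0.11, adjusted p = 1.38e-05). The mesoderm factor twi had 10.1 and 10.5 CPM in tumour against 37.2 and 42.2 CPM in control discs (log2 fold change -1.94 ± 0.41, adjusted p = 0.00262). The FGF adaptor stumps had 36.3 and 34.7 CPM in tumour against 60.2 and 66 CPM in control discs (log2 fold change -0.83 ± 0.19, adjusted p = 0.00356). The summed level of the 7 markers was 328 and 298 CPM in tumour and 553 and 608 CPM in control discs. The part of fewer myoblasts in the falls of notum genes was not tested.

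The compartment genes were read because the transgenes are driven in posterior cells. The anterior factor gene ci, which carries the response to Hedgehog, had 289 and 311 CPM in tumour against 543 and 563 CPM in control discs (log2 fold change -0.88 ± 0.14, adjusted p = 0.000286). The posterior selector gene en stood at 33 and 63.8 CPM in tumour against 92.4 and 94.8 CPM in control discs (log2 fold change -0.95 ± 0.26, adjusted p = 0.0121). That call did not hold, with -0.55 (adjusted p = 0.127) without tumour replicate 1 and -0.93 (adjusted p = 0.0636) without control replicate 2. Its neighbour inv (83.7 and 91.1 CPM in tumour and 93 and 122 CPM in control discs) and the Hedgehog receptor and target gene ptc (201 and 158 CPM in tumour and 157 and 216 CPM in control discs) were not called, and neither was hh. On this list 6 of 12 genes fell and none rose (median -0.36), with 1, 6, 3 and 2 without single wing libraries.

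Several receptors and transducers of Wingless signalling were modestly lower. Of 16 genes on the list 8 fell and none rose (median -0.40), with 5, 6, 8 and 5 without single wing libraries. The 5 falls that held were those of arr, fz, arm, wls and Dll. Dll is also counted among the pouch and hinge genes and the leg genes, and arm among the polarity and junction genes. The co-receptor gene arr had 183 and 198 CPM in tumour against 322 and 399.6 CPM in control discs (log2 fold change -0.92 ± 0.15, adjusted p = 0.000398). The Frizzled receptor gene fz had 124 and 144 CPM in tumour against 190.4 and 241 CPM in control discs (log2 fold change -0.69 ± 0.12, adjusted p = 0.000516). The gene of beta-catenin, arm, had 1146 and 1149.6 CPM in tumour against 1527 and 1566 CPM in control discs (log2 fold change -0.43 ± 0.06, adjusted p = 0.000173). The gene wls, which exports Wnt ligands, had 146 and 178 CPM in tumour against 218 and 223 CPM in control discs (log2 fold change -0.44 ± 0.10, adjusted p = 0.00272). The Wnt ligand genes Wnt4 (19.7 and 18.7 CPM in tumour and 19.2 and 31.7 CPM in control discs) and Wnt6 (46 and 70.3 CPM in tumour and 41.6 and 52.8 CPM in control discs) were not called. In the Dpp pathway 2 of 12 genes rose and 4 fell (median -0.10), and the falls numbered 2, 4, 4 and 2 without single wing libraries. The falls that held were those of Dad and bi, and bi is also counted among the pouch and hinge genes. The transcriptional repressor gene brk, which opposes Dpp, had 182 and 224 CPM in tumour against 97.5 and 127 CPM in control discs (log2 fold change 0.85 ± 0.16, adjusted p = 0.00118). The glypican gene dally, whose product binds Dpp, had 827 and 810.0 CPM in tumour against 394 and 453 CPM in control discs (log2 fold change 0.95 ± 0.16, adjusted p = 0.000358). The inhibitory Smad gene Dad, a Dpp target, fell, at 115 and 111 CPM in tumour against 166 and 181 CPM in control discs (log2 fold change -0.62 ± 0.11, adjusted p = 0.00056). The ligand gene dpp (122 and 117 CPM in tumour and 85.5 and 94.4 CPM in control discs) and the receptor gene tkv (567 and 590.4 CPM in tumour and 611 and 791 CPM in control discs) were not called.

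Of 19 Notch pathway genes 1 rose and 5 fell (median -0.24), and none of these calls held. These are 5.26% and 26.3%, beside 16.3% and 14.1% of all tested genes. The falls numbered 2, 4, 3 and 0 without single wing libraries, and the rise 1, 0, 0 and 1 without single wing libraries. The receptor gene N (714 and 609 CPM in tumour and 604 and 719 CPM in control discs) and the ligand gene Delta (178 and 187 CPM in tumour and 166 and 220.2 CPM in control discs) had overlapping groups. Of 11 bristle and proneural genes 2 rose and 1 fell, and the rises numbered 1, 2, 1 and 2 without single wing libraries. Those shares, 18.2% and 9.09%, were near the 16.3% and 14.1% of all tested genes. The bristle precursor factor gene sens had 2.12 and 0.793 CPM in tumour against 9.69 and 12.3 CPM in control discs (log2 fold change -2.93 ± 0.43, adjusted p = 0.000148). The gene insc, which orients asymmetric division, had 82 and 47.3 CPM in tumour against 8.52 and 9.97 CPM in control discs (log2 fold change 2.80 ± 0.34, adjusted p = 3e-05).

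Hippo pathway members and targets did not move one way. Of 19 genes 5 rose and 5 fell (median 0.05), the rises 4, 4, 2 and 4 without single wing libraries and the falls 2, 4, 4 and 1 without single wing libraries. The rises that held were those of Wbp2 and dally, and dally is also counted on the Dpp list. Wbp2, a cofactor of Yorkie, had 128 and 90.0 CPM in tumour against 52.1 and 47.1 CPM in control discs (log2 fold change 1.13 ± 0.19, adjusted p = 0.000358). The myosin gene dachs, which acts below the cadherin Fat, had 476 and 504 CPM in tumour against 651 and 719 CPM in control discs (log2 fold change -0.48 ± 0.10, adjusted p = 0.002). The Yorkie targets ex (713 and 833 CPM in tumour and 552 and 626 CPM in control discs) and Diap1 (558 and 431 CPM in tumour and 542 and 634 CPM in control discs) were not called, nor was yki itself (108 and 110.1 CPM in tumour and 121 and 128 CPM in control discs). Its DNA-binding partner sd had 329.9 and 373 CPM in tumour against 475 and 535 CPM in control discs (log2 fold change -0.52 ± 0.17, adjusted p = 0.0274). The change of sd was -0.44 (adjusted p = 0.163) without tumour replicate 1 and -0.44 (adjusted p = 0.162) without control replicate 2. Of 26 cell cycle and replication genes 12 fell and none rose (median -0.37), but the falls numbered 2, 16, 4 and 3 without single wing libraries, and 24 of the 26 stood lower in tumour replicate 1 than in tumour replicate 2. The mitotic cyclin genes CycB and CycA fell, and the calls remained without each wing library. In a fit of the wing libraries alone their adjusted p-values were 0.0702 and 0.0705, above 0.05. CycB had 266 and 300.1 CPM in tumour against 396 and 383 CPM in control discs (log2 fold change -0.46 ± 0.08, adjusted p = 0.000507). CycA had 209 and 261 CPM in tumour against 349 and 346 CPM in control discs (log2 fold change -0.56 ± 0.12, adjusted p = 0.002). The mitotic inducer gene stg (94.9 and 163 CPM in tumour and 106 and 131 CPM in control discs) and PCNA, the sliding clamp of replication (187 and 278 CPM in tumour and 283 and 254 CPM in control discs), were not called.

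Of 19 polarity and junction genes 7 fell and 2 rose (median -0.19), the falls 5, 5, 5 and 3 without single wing libraries and the rises 0, 1, 0 and 1 without single wing libraries. The falls that held were those of arm, alpha-Cat and Fas3. The adherens junction gene alpha-Cat had 236 and 235 CPM in tumour against 324 and 319 CPM in control discs (log2 fold change -0.45 ± 0.07, adjusted p = 0.000341). The septate junction gene Fas3 had 635 and 759.9 CPM in tumour against 1044 and 1039 CPM in control discs (log2 fold change -0.58 ± 0.09, adjusted p = 0.000226). The E-cadherin gene shg (736 and 687 CPM in tumour and 566 and 651 CPM in control discs) and dlg1, which acts with Scrib (228 and 219.9 CPM in tumour and 254 and 274 CPM in control discs), were not called. Among 14 basement membrane and matrix genes 4 rose and 1 fell (median 0.65). The rises numbered 2, 6, 4 and 3 without single wing libraries, and the fall, of Ppn, 1, 1, 1 and 0 without single wing libraries. Beside Mmp1, the integrin ligand gene Tig had 253 and 135 CPM in tumour against 27.2 and 6.28 CPM in control discs (log2 fold change 3.54 ± 0.54, adjusted p = 0.000225). The collagen IV genes vkg (138 and 88.4 CPM in tumour and 81.6 and 33.6 CPM in control discs) and Col4a1 (207 and 124 CPM in tumour and 134 and 51.5 CPM in control discs) had no call.

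Genes of the ecdysone response split into large falls and a few rises. Of 16 tested members 8 fell and 4 rose (median -0.55), and 6 falls and 2 rises held. The rises numbered 2, 4, 3 and 3 without single wing libraries. The secreted or membrane proteins of everting discs encoded by ImpE1, ImpE2 and ImpE3 were much lower. ImpE2 had 149.9 and 154 CPM in tumour against 6330.1 and 8177 CPM in control discs (log2 fold change -5.58 ± 0.95, adjusted p = 0.000594). ImpE3 had 29.7 and 20.1 CPM in tumour against 305 and 452 CPM in control discs (log2 fold change -3.93 ± 0.62, adjusted p = 0.000291). ImpE1 had 217 and 128 CPM in tumour against 734 and 1184 CPM in control discs (log2 fold change -2.47 ± 0.45, adjusted p = 0.000902). The nuclear receptor genes Hr3, Eip78C and Eip75B, which the hormone induces, stood at 2.65 and 5.70, 10.2 and 18 and 111 and 136 CPM in tumour and at 195 and 389, 122 and 179 and 258 and 358 CPM in control discs. Their log2 changes were -6.10 ± 1.27, -3.41 ± 0.64 and -1.32 ± 0.22. The repressor gene Blimp-1 had 1.41 and 7.79 CPM in tumour against 107 and 209 CPM in control discs (log2 fold change -5.06 ± 1.16, adjusted p = 0.00467). Its change was -4.34 (adjusted p = 0.0527) without tumour replicate 1. In the opposite direction, ftz-f1, a nuclear receptor expressed when the hormone level drops, had 94.5 and 83.9 CPM in tumour against 13.4 and 8.19 CPM in control discs (log2 fold change 3.05 ± 0.31, adjusted p = 6.27e-06). Cyp18a1, the enzyme that inactivates ecdysone, had 129.6 and 53.1 CPM in tumour against 2.92 and 10.2 CPM in control discs (log2 fold change 3.79 ± 0.66, adjusted p = 0.000648). The receptor gene EcR had 231 and 187 CPM in tumour against 131 and 134 CPM in control discs (log2 fold change 0.66 ± 0.15, adjusted p = 0.00459). Its call did not hold, with 0.50 (adjusted p = 0.0633) without tumour replicate 1. Its partner usp (70.0 and 72.2 CPM in tumour and 75.6 and 93 CPM in control discs) and Eip74EF (124 and 136 CPM in tumour and 117 and 136 CPM in control discs) were not called. The control discs came from day 5 and the tumour discs from days 9 and 11, and for this list too age and genotype cannot be told apart.

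Many detoxification genes rose. Of 30 glutathione transferase genes 14 rose and 4 fell (median 1.27), and 10 rises and 3 falls held. GstE6 stood at 159.7 and 166 CPM in tumour against 0.919 and 1.18 CPM in control discs (log2 fold change 7.26 ± 0.63, adjusted p = 2.55e-06). GstD3 stood at 484 and 319 CPM in tumour against 42.6 and 42.1 CPM in control discs (log2 fold change 3.24 ± 0.21, adjusted p = 2.85e-07). GstD1, the best studied member, stood at 3789.6 and 1584 CPM in tumour against 853 and 795 CPM in control discs (log2 fold change 1.71 ± 0.33, adjusted p = 0.00135). The falls that held were those of GstS1, GstO2 and GstO3, with 621 and 625, 98.9 and 106 and 141 and 127 CPM in tumour and 917 and 908, 147 and 139.5 and 247 and 233 CPM in control discs. Genes of this family lie in clusters of similar sequence, and reads that fit several copies were not counted. Of 59 cytochrome P450 genes 19 rose and 2 fell (median 0.62), and 12 rises and both falls held. Beside Cyp6a17, Cyp6d2 had 46 and 47.5 CPM in tumour against 3.59 and 1.55 CPM in control discs (log2 fold change 4.19 ± 0.54, adjusted p = 5.25e-05). Cyp6d4 had 63.2 and 49.6 CPM in tumour against 13.9 and 15.5 CPM in control discs (log2 fold change 1.94 ± 0.21, adjusted p = 1.06e-05). Cyp4e2 fell, at 25.1 and 15.3 CPM in tumour against 56.5 and 64.7 CPM in control discs (log2 fold change -1.59 ± 0.31, adjusted p = 0.00125).

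The antioxidant enzyme gene Cat (catalase) was lower, at 177 and 158 CPM in tumour against 591 and 725 CPM in control discs (log2 fold change -1.98 ± 0.14, adjusted p = 6.39e-07), while the superoxide dismutase genes Sod1 (271 and 215 CPM in tumour and 315 and 299 CPM in control discs) and Sod2 (88.4 and 107 CPM in tumour and 125 and 106 CPM in control discs) were not called. Heat shock genes differed between the tumour replicates. Hsp26 stood at 3920.2 and 143 CPM in tumour against 769 and 1387 CPM in control discs. Hsp23 stood at 4373 and 326 CPM in tumour against 2388 and 3003 CPM in control discs, and Hsp68 at 955 and 38.4 CPM in tumour against 99 and 345 CPM in control discs. Tumour replicate 1 was more than 10 times tumour replicate 2 in each. The groups overlapped and none of the 3 was called. Glycolytic genes had the same order: all 12 tested members were higher in tumour replicate 1, 11 of them at least 2-fold, where 50.8% of all tested genes were higher in that replicate. Ldh (lactate dehydrogenase) had 4120.0 and 403 CPM in tumour against 17.7 and 24.7 CPM in control discs (log2 fold change 6.73 ± 1.55, adjusted p = 0.00499). The change of Ldh was 6.51 (adjusted p = 0.052) without control replicate 1. Pfk, the committed step of glycolysis, had 671 and 184 CPM in tumour and 181 and 182 CPM in control discs, so that tumour replicate 2 stood near the controls. The list had 2 rises and no fall, 1, 8, 0 and 1 without single wing libraries. Whether the day of dissection or the dissection itself separated the tumour replicates cannot be told apart.

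Most proteasome subunit genes fell. Of 35 tested genes 27 fell and 2 rose (median -0.53), and 20 falls held. The regulatory subunit gene Rpn1 had 282 and 301 CPM in tumour against 473 and 478 CPM in control discs (log2 fold change -0.71 ± 0.09, adjusted p = 4.26e-05). Rpn2 had 323 and 344 CPM in tumour against 569 and 516 CPM in control discs (log2 fold change -0.70 ± 0.09, adjusted p = 6.64e-05). The rises were those of Rpt3R and Rpt6R, at 7.06 and 9.30 CPM in tumour and 4.43 and 3.99 CPM in control discs and at 1.23 and 2.38 CPM in tumour and 0.334 and 0.443 CPM in control discs, and numbered 2, 0, 1 and 0 without single wing libraries. Cytosolic ribosomal protein genes shifted less, with 25 falls and 1 rise among 82 (median -0.24). Without single wing libraries the falls numbered 15, 12, 9 and 14 and the rises 1, 3, 1 and 1. The rise was that of RpLP0-like, which entered the family by its symbol. Whether RpLP0-like encodes a protein of the ribosome was not examined. RpL35A had 757 and 721 CPM in tumour against 1513 and 1415 CPM in control discs (log2 fold change -0.99 ± 0.12, adjusted p = 2.03e-05). RpL3 had 2613 and 2530.3 CPM in tumour against 4309.7 and 4294 CPM in control discs (log2 fold change -0.74 ± 0.08, adjusted p = 1.66e-05). Mitochondrial ribosomal protein genes, encoded in the nucleus, gave 10 rises and 1 fall among 70 (median 0.10), with rises numbering 0, 9, 6 and 0 without single wing libraries and falls 0, 2, 1 and 0 without single wing libraries.

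Few calls among genes of cuticle-forming cells held, and most members were higher in tumour replicate 1 than in tumour replicate 2, 7 of 9 Osiris and 25 of 33 Cpr genes. Of 9 tested Osiris genes 5 rose and 1 fell (median 4.08), the rises 2, 6, 1 and 4 without single wing libraries and the fall 1, 0, 1 and 0 without single wing libraries. Osi14, whose call held, had 104 and 143 CPM in tumour against 4.84 and 4.06 CPM in control discs (log2 fold change 4.80 ± 0.51, adjusted p = 1.5e-05). Of 33 Cpr cuticle protein genes 8 rose and 2 fell (median 0.96), beside 16.3% and 14.1% of all tested genes, the rises 3, 9, 3 and 2 without single wing libraries and the falls 1, 0, 2 and 1 without single wing libraries. Of the Cpr rises 2 held. Cpr49Ah, whose call held, had 62.7 and 129 CPM in tumour against 8.52 and 4.72 CPM in control discs (log2 fold change 3.86 ± 0.68, adjusted p = 0.00068). In the Toll branch of the 20 immune genes the NF-kappaB factor gene Dif had 32 and 41.8 CPM in tumour against 2.09 and 1.48 CPM in control discs (log2 fold change 4.37 ± 0.38, adjusted p = 2.2e-06). The peptidoglycan receptor gene PGRP-SA had 41.3 and 37.3 CPM in tumour against 4.43 and 1.99 CPM in control discs (log2 fold change 3.62 ± 0.45, adjusted p = 4.02e-05). The Toll receptor gene Tl had 87.3 and 63.3 CPM in tumour against 117 and 171 CPM in control discs, a call (log2 fold change -0.94 ± 0.31, adjusted p = 0.0327) that did not hold. Its change was -0.72 (adjusted p = 0.183) without tumour replicate 2 and -0.65 (adjusted p = 0.228) without control replicate 2. Antimicrobial peptide genes were not called: DptA stood at 1.15 and 0.0721 CPM in tumour and 14.8 and 0.812 CPM in control discs, and Mtk at 1.85 and 0.144 CPM in tumour and 1.34 and 0 CPM in control discs. That list had 5 rises and 1 fall, the rises 3, 5, 2 and 2 without single wing libraries and the fall 1, 0, 1 and 0 without single wing libraries.

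Markers of other tissues that a dissected disc can carry were summed in each library. Of 10 hemocyte markers 2 rose and none fell (0, 2, 2 and 1 without single wing libraries), and their sum was 468 and 254 CPM in tumour and 230.0 and 116 CPM in control discs. The hemocyte gene Hml had 123 and 50.3 CPM in tumour against 17.2 and 2.58 CPM in control discs (log2 fold change 3.15 ± 0.93, adjusted p = 0.0208). The change of Hml was 2.36 (adjusted p = 0.132) without tumour replicate 1 and 2.31 (adjusted p = 0.151) without control replicate 2. Fat body markers had no call among 8, with a sum of 137 and 290.0 CPM in tumour and 5360.0 and 585 CPM in control discs. The storage protein gene Lsp1beta stood at 16.4 and 27.1 CPM in tumour and 913 and 9.52 CPM in control discs, so that control replicate 1 stood apart from the other 3 libraries. Without control replicate 2, 2 of the 8 fell. Neuron markers had 1 rise among 6 (1, 0, 0 and 0 without single wing libraries) and sums of 101 and 141 CPM in tumour and 109 and 108 CPM in control discs. The rise was that of the synaptic gene nSyb, at 0.882 and 7.72 CPM in tumour against 0.334 and 0.369 CPM in control discs, and it did not hold (1.30 (adjusted p = 0.566) without tumour replicate 2, 3.53 (adjusted p = 0.156) without control replicate 1 and 3.68 (adjusted p = 0.168) without control replicate 2). The synaptic gene brp (0.353 and 8.08 CPM in tumour and 0.835 and 0.664 CPM in control discs) was likewise highest in tumour replicate 2. The pan-neuronal gene elav stood at 44.8 and 62.2 CPM in tumour and 43.9 and 50.4 CPM in control discs without a call. Of 6 glia markers 3 rose and 1 fell, the rises 3, 1, 1 and 1 without single wing libraries. Of these calls the rise of moody and the fall of Gli held. The barrier receptor gene moody had 114 and 79.2 CPM in tumour against 12.4 and 12.3 CPM in control discs (log2 fold change 2.96 ± 0.26, adjusted p = 2.28e-06), while the glial selector gene repo stood at 0.794 and 1.73 CPM in tumour and 0.668 and 0.886 CPM in control discs. Tracheal markers gave 1 rise and 1 fall among 5 genes, neither of which held (rises 0, 3, 1 and 0 without single wing libraries), and summed to 4820.0 and 2010.0 CPM in tumour and 2020.0 and 2530.0 CPM in control discs. Larval muscle markers gave 1 rise among 6 genes, which did not hold, and summed to 267 and 144 CPM in tumour and 123 and 133 CPM in control discs. No salivary gland marker was called among 6, with sums of 0.794 and 23.3 CPM in tumour and 2.00 and 9.75 CPM in control discs. Glia markers summed to 435 and 390.0 CPM in tumour and 408 and 458 CPM in control discs. The part of these tissues in the changes of other genes was not tested.

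The change in wing discs was then set beside that in eye-antennal and leg discs, by testing for each gene whether the log2 change in wing discs differed from the mean of the changes in the other discs. Of all tested genes 17.1% rose and 12.1% fell in eye-antennal discs, and 19.7% rose and 18.6% fell in leg discs, tumour against control. In all 3 discs 919 genes rose, which is 57.5% of the rises in wing, 54.8% of those in eye-antennal and 47.4% of those in leg discs. In all 3 discs 718 genes fell, which is 51.9%, 60.2% and 39.4% of the falls in wing, eye-antennal and leg discs. A call in wing discs and in neither other disc was made for 503 genes, and 12 genes rose in wing discs but fell in both others. The difference itself was called for 192 genes (1.96%), of which 155 (1.58%) had a higher and 37 (0.377%) a lower change in wing discs. Without single libraries of these discs the 155 became 18 to 322. The lowest count came without either control wing replicate and the highest without control leg replicate 2. The 37 became 6 to 45.

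The lower changes in wing discs included patterning genes. The intervein gene bs fell in wing discs as described, and averaged 31.9 CPM in tumour eye-antennal and 33.1 CPM in control eye-antennal discs, with 29.3 CPM in tumour leg and 38.8 CPM in control leg discs (difference -1.81 ± 0.12, adjusted p = 1.48e-06). The control wing level stood apart: tumour wing discs had about the level that both other discs showed with and without tumours. The homeobox gene al, which acts in the distal leg and in other disc regions, had 10.9 and 14.7 CPM in tumour wing against 74.7 and 95.1 CPM in control wing discs (log2 fold change -2.72 ± 0.21, adjusted p = 8.85e-07). It averaged 58.1 CPM in tumour eye-antennal and 38.3 CPM in control eye-antennal discs, with 23.8 CPM in tumour leg and 125 CPM in control leg discs (difference -1.83 ± 0.24, adjusted p = 0.00294). The glucose dehydrogenase gene Gld had 10.4 and 21.7 CPM in tumour wing against 50.3 and 50.5 CPM in control wing discs. It averaged 51 CPM in tumour eye-antennal and 16 CPM in control eye-antennal discs, with 10.6 CPM in tumour leg and 15.2 CPM in control leg discs (difference -2.22 ± 0.34, adjusted p = 0.00901). For al and Gld the change in wing discs differed more from that in eye-antennal than from that in leg discs. The log2 change of al was -2.72 in wing, 0.60 in eye-antennal and -2.39 in leg discs, and that of Gld -1.64 in wing, 1.67 in eye-antennal and -0.52 in leg discs. These 3 differences remained when each of the 12 tumour and control libraries of the discs was left out in turn. Of the 18 pouch and hinge genes 3 had a lower change in wing discs (bs, dve and Dll), beside 0.377% of all tested genes, and none a higher.

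Most genes with a higher change in wing discs had low counts. Of the 155 genes 106 had a tumour wing mean under 10 CPM, 35 had at most 3 reads in the control wing libraries and 10 had none. Of all 9814 tested genes 6719 had a mean of at least 10 CPM in tumour or control wing discs. The median log2 change of the 155 genes was 2.61 in wing discs, -1.20 in eye-antennal and -1.46 in leg discs. They were selected by this difference, so the contrast of the medians is no further result. In both other discs 45 of the 155 fell. Of all tested genes 12.1% fell in eye-antennal and 18.6% in leg discs, and the share that fell in both was not taken. Among genes with more reads, Swim, a secreted protein that binds Wingless, had 33.2 and 83.6 CPM in tumour wing against 4.18 and 4.58 CPM in control wing discs (log2 fold change 3.74 ± 0.38, adjusted p = 6.79e-06). It averaged 55 CPM in tumour eye-antennal and 40.5 CPM in control eye-antennal discs, with 48.2 CPM in tumour leg and 38 CPM in control leg discs (difference 3.34 ± 0.43, adjusted p = 0.00273). Its control wing libraries were under all of these means, and tumour wing replicate 2 above them. The leucine-rich repeat gene trn had 265 and 278 CPM in tumour wing against 201 and 195 CPM in control wing discs. It averaged 166 CPM in tumour eye-antennal and 283 CPM in control eye-antennal discs, with 82.6 CPM in tumour leg and 204 CPM in control leg discs (difference 1.49 ± 0.19, adjusted p = 0.00254). The potassium and chloride cotransporter gene kcc stood at 24.4 and 26.2 CPM in tumour wing against 15.6 and 14.4 CPM in control wing discs (log2 fold change 0.75 ± 0.14, adjusted p = 0.000739). It averaged 25.8 CPM in tumour eye-antennal and 39.5 CPM in control eye-antennal discs, with 21 CPM in tumour leg and 33.1 CPM in control leg discs (difference 1.39 ± 0.17, adjusted p = 0.00181). The differences of Swim, trn and kcc remained without any of the 12 libraries left out in turn. Of the bristle and proneural list 4 of 11 genes had a higher change in wing discs (l(1)sc, neur, phyl and ato), beside 1.58% of all tested genes. Each of these 4 had under 25 CPM in every wing library.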

How the data were processed

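Gene read counts were deposited by the authors as a table of 27 libraries and 15348 genes. Per the submitters' processing notes, TopHat2, HTSeq and the dm3 build were used; for their versions and settings, and for the annotation release, the entry is: not given in the sources used here. The 5 summary lines of the table, among them the line for reads aligned to several places, which entered no gene's count, were left out. Of the genes 14639 had a symbol.

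CPM are counts scaled by the library total and its TMM factor. A gene was tested if 2 or more libraries reached 1 CPM, which 9814 genes did. All 27 libraries were fitted with 1 mean for each of the 15 groups of genotype and disc (12 residual degrees of freedom) in edgeR 4.0.16 (R 4.3.3), and tumour was compared with control wing discs by the quasi-likelihood F-test, with Benjamini-Hochberg adjustment over all tested genes at 0.05. This design borrows the spread of the other groups for the 2 libraries of each wing group. It treats libraries of different discs as independent, also in the test of the wing change against the other discs. In the limma-voom alternative with a block, libraries of 1 genotype and replicate number were taken as 1 dissection. The correlation within such a block was 0.442. Each standard error was taken as the size of the log2 change over the root of its F value. The same fit tested the wing change minus the mean of the eye-antennal and leg changes. Fold ratios for genes with 1 to 3 reads in a group carry a 95% interval for counting error only, and 0 reads were set to a floor of 3 over the group.

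Alternatives used limma 3.58.1 and DESeq2 1.42.0. Before use the main fit was run on simulated counts, drawn independently for each library, with changes set only in genes above a minimum level. That run does not cover genes with few reads, or libraries that vary together. Figures were drawn with matplotlib 3.10.9, and tables with numpy 2.4.6 and pandas 2.3.3 in Python 3.11.15.

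The members and the 28 gene lists, 9 marker lists and 8 families (405 of 430 list symbols matched) were chosen with earlier results of these data known. Genes were named by rule: targeted genes, the 12 largest rises and falls with non-overlapping groups and at least 10 CPM in the higher group, up to 3 rises and falls per list with the smallest adjusted p, and the 8 largest differences from the other discs each way. Other called genes, and uncalled members, are named for their role in a list; bs, trn, kcc and Swim were singled out in the comparison of discs after their values were seen. Promoter sequences were not used here.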

Additional observations from a re-analysis of the deposited data

Results flagged for a closer look

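The change in wing discs differed from the mean change in eye-antennal and leg discs for the genes below, each by edgeR's quasi-likelihood test of the difference itself. The 8 largest differences towards a higher change in wing discs were those of Sidpn (10.22 ± 1.99, adjusted p = 0.0209), Dscam3 (8.46 ± 1.88, adjusted p = 0.0338), Ca-alpha1T (8.39 ± 1.70, adjusted p = 0.0242), run (8.00 ± 1.35, adjusted p = 0.0116), Oct-TyrR (7.87 ± 1.46, adjusted p = 0.0177), Actbeta (7.44 ± 1.19, adjusted p = 0.00974), twit (6.92 ± 1.34, adjusted p = 0.0184) and nrv3 (6.87 ± 1.43, adjusted p = 0.0258), all on the log2 scale. These sizes and their order depend on the count added in the fit, since the 2 control wing libraries together held 0 to 5 reads of each gene. Counted against the floor of 3 reads, the rise in wing discs was at least 15.9-fold for Sidpn, 9.45-fold for Ca-alpha1T, 3.71-fold for run and 122-fold for Oct-TyrR, which had no control wing read. With 1 control read, the ratio was 53.7-fold (9.22 to 2159) for Dscam3 and 18.2-fold (2.88 to 759) for twit. Sidpn, Ca-alpha1T, run and twit did not reach 1 CPM in both tumour wing libraries and were tested through their levels in other discs. In tumour wing discs run had 0.441 and 0.433 CPM and twit 0.706 and 0.721 CPM, where control eye-antennal discs averaged 10.8 and 83.6 CPM. Each of the 8 calls was lost without at least 1 of the 12 libraries. Actbeta, an activin ligand, stood at 1.85 and 15.8 CPM in tumour against 0.0835 and 0.295 CPM in control discs.

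Towards a lower change in wing discs the 8 largest were those of CG7201 (-5.25 ± 1.01, adjusted p = 0.0177), Cyp310a1 (-2.35 ± 0.50, adjusted p = 0.0284), Gld (-2.22 ± 0.34, adjusted p = 0.00901), Sdb (-2.12 ± 0.36, adjusted p = 0.0105), geko (-2.09 ± 0.38, adjusted p = 0.0146), nab (-2.0 ± 0.38, adjusted p = 0.0177), Phk-3 (-1.83 ± 0.40, adjusted p = 0.032) and al (-1.83 ± 0.24, adjusted p = 0.00294). Of these the calls of Gld and al remained without each library in turn. The log2 change of al was -2.72 in wing, 0.60 in eye-antennal and -2.39 in leg discs, that of Gld -1.64 in wing, 1.67 in eye-antennal and -0.52 in leg discs and that of geko -1.41 in wing, 1.97 in eye-antennal and -0.61 in leg discs, so that all 3 lay nearer to the change in leg than to that in eye-antennal discs. The log2 changes of Phk-3 were 1.18 in wing, 2.72 in eye-antennal and 3.29 in leg discs, and those of nab, a cofactor gene of the wing hinge, were -1.69 in wing, 0.10 in eye-antennal and 0.52 in leg discs. Further differences were those of bs (-1.81 ± 0.12, adjusted p = 1.48e-06), trn (1.49 ± 0.19, adjusted p = 0.00254), kcc (1.39 ± 0.17, adjusted p = 0.00181) and Swim (3.34 ± 0.43, adjusted p = 0.00273).

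Lines of reads aligned to several places, which entered no comparison, stood out as well. They made up 76.1% and 60.9% of the lines of tumour wing replicates 1 and 2, and 16.9% and 15.8% of those of the control wing replicates.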

How the results depend on the processing

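The count of genes higher in tumour wing discs (1597) fell to 752 in a fit of the 4 wing libraries alone, and ranged between 932 and 1549 without single wing libraries. The count lower (1383) became 522 with the wing libraries alone and 905 with control and tumour libraries only, and 849 to 1258 without single libraries. At least 2-fold rises (956) numbered 633 by limma-voom, 632 by limma-voom with the dissection as a random block, 570 with the wing libraries alone and 636 to 985 without single libraries. At least 2-fold falls (266) stayed within 1.5 times under every alternative. Higher changes in wing than in other discs (155) became 457 by DESeq2, 5 by limma-voom, 5 with control and tumour libraries only and 18 to 322 without single libraries. Lower ones (37) became 121 by DESeq2, 12 by limma-voom, 115 with the dissection block, 3 with control and tumour libraries only and 6 to 45 without single libraries. The causes of these shifts were not tested, beyond fewer libraries entering some fits.

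Same-numbered tumour and control wing libraries did not deviate together (correlation of deviations -0.00419). The tumour replicates also differ in day, so that value cannot decide whether the replicate numbers pair tumour with control libraries. It does not cover libraries of different discs, where those sharing genotype and replicate number had a correlation of 0.442 within the dissection block. With the replicate number as a block over all libraries 1552 genes were higher, 1351 lower, 930 higher and 266 lower by at least 2-fold, and 127 and 31 had a higher and a lower change in wing discs. In a replicate block over the wing libraries only, 629 genes were higher, 341 lower and 549 higher by at least 2-fold.

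The alternatives were scored for 237 changes in wing discs and 33 differences between discs, and none of these turned its direction. Uncalled genes with overlapping groups, such as hh and Ubx, were not among those scored. Of the 237 changes 91 kept their call under all alternatives run for them, and of the 33 differences 2 did (bs and kcc). DESeq2 size factors kept 98.8% of the wing calls and DESeq2's test 98.5%, and the wing libraries alone 41.7%. Rises made up 53.6% of the calls, and 47.3% by limma-voom. The median of the Hox list (1.16) became -0.03, and that of the haltere markers (0.78) -0.41, with a minimum of 5 CPM. With 2 libraries a group, genes with few reads had wide errors, and a missed call does not show that a gene did not differ.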

Other observations

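Genes of leg and eye discs were followed in wing discs as well. Of the leg list 14.3% rose and 42.9% fell, beside 16.3% and 14.1% of all tested genes, and the share of rises was near that of all genes. Of 14 tested leg genes 2 rose and 6 fell (median log2 change -0.56), the rises numbering 1, 2, 1 and 1 without single wing libraries. The bHLH-PAS factor gene dysf, which acts at leg joints, stood at 267 and 184 CPM in tumour against 17.7 and 24.4 CPM in control discs (log2 fold change 3.42 ± 0.32, adjusted p = 3.65e-06). The middle leg gene dac, which control wing discs express too, had 14 and 18.5 CPM in tumour against 51.5 and 69.1 CPM in control discs (log2 fold change -1.89 ± 0.38, adjusted p = 0.00198). Of 10 tested eye genes 1 rose and 3 fell (median 0.10), the falls numbering 2, 2, 2 and 2 without single wing libraries and the rise 0, 1, 0 and 1 without single wing libraries. The homeobox gene Optix had 4.06 and 5.05 CPM in tumour against 22.1 and 26.8 CPM in control discs (log2 fold change -2.42 ± 0.52, adjusted p = 0.00275).

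Among 5 tested piRNA and germline genes 2 rose and 1 fell. The Argonaute gene AGO3 had 12.1 and 7.36 CPM in tumour against 2.76 and 1.99 CPM in control discs (log2 fold change 2.03 ± 0.29, adjusted p = 0.000104), and the Tudor domain gene krimp 2.65 and 2.24 CPM in tumour against 16.2 and 13.4 CPM in control discs (log2 fold change -2.60 ± 0.34, adjusted p = 5.34e-05). The Argonaute gene piwi had 5.20 and 4.69 CPM in tumour against 0.919 and 2.07 CPM in control discs (log2 fold change 1.72 ± 0.47, adjusted p = 0.013), a call that did not hold (1.64 (adjusted p = 0.0558) without tumour replicate 1 and 1.25 (adjusted p = 0.123) without control replicate 1). Of the 3 stage identity genes chinmo rose and Syp fell, as described, and Eip93F rose without holding. Among 4 Twdl cuticle genes 1 rose, 0, 1, 0 and 0 without single wing libraries. The 2 haltere and posterior segment markers had no call and summed to 17.6 and 20.4 CPM in tumour and 11.7 and 38.6 CPM in control discs.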
